A study of Mus musculus with 6 samples.

Results

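The messenger RNAs of 10 genes of the Notch pathway were followed in the spinal cord of adult mice that lack Sox2 in astrocytes. They were the receptors Notch1, Notch2 and Notch3, the ligands Dll1 and Jag1, the DNA-binding factor Rbpj, and the target genes Hes1, Hes5, Hey1 and Hey2. They were found by gene symbol among the 35275 genes of the deposited tables, and all 10 of 10 were present. Poly(A) RNA of the whole spinal cord was sequenced from 3 Sox2 cKO and 3 Ctrl mice of the C57BL/6 strain, both sexes being used in each group. The Sox2 cKO mice carried mGfap-Cre, in which a stretch of the mouse Gfap promoter drives Cre, together with Sox2fl/fl, so that recombination was directed to astrocytes. The labels give the Ctrl genotype as mGfap-Cre:Sox2+/+, whereas the series design gives mGfap-Cre or Sox2fl/fl and the study's methods give Sox2fl/fl littermates. The age is postnatal day 90 in one label and 80 in the design. Any effect of Cre or of the floxed allele alone therefore cannot be told apart from that of the deletion if the Ctrl mice lacked it.

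Notch receptors are cell-surface proteins that are switched on by ligands of the Delta-like and Jagged families on a neighbouring cell. Ligand binding exposes the receptor to sheddases and then to gamma-secretase, which frees its intracellular domain to enter the nucleus. There it joins Rbpj and turns on genes of the HES and HEY families, which encode transcriptional repressors. In the central nervous system the pathway keeps progenitors undifferentiated and favours the formation of astrocytes. In the adult, Notch1 is found in glia and endothelium, and Notch3 is best known in the mural cells that wrap blood vessels. Hes1 and Hes5 are the classical targets in neural progenitors, whereas Hey1 and Hey2 are also prominent in the vasculature.

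Promoter sequences of RefSeq (GRCm38.p6, the build of mm10) matched 8 of the 10 genes, Hes1 and Hey1 not being matched. They were searched on both strands for TTCCCAC or GTGGGAA, the letters of a classical Rbpj site, within a window of 250 bases before and 50 bases after the start site. Hes5 and Hey2 each held 2 matches, and the receptors, the ligands and Rbpj held 0. Of 32851 mouse promoters of that length, 6.38% held at least 1 match and 0.256% held at least 2. The 250 bases before the start sites of Hes5 (chr4:154960673-154960922, plus strand) and Hey2 (chr10:30842784-30843033, minus strand) are given because they are the members that hold these letters. Capitals mark the matches. The other match in Hey2 spans its start site, from position -4 to 2, and lies partly outside this stretch.
Hes5: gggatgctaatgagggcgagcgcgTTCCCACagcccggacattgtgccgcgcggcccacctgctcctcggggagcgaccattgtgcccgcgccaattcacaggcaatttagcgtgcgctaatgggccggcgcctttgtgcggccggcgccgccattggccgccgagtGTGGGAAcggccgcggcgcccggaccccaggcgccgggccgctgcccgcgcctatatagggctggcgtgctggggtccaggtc
Hey2: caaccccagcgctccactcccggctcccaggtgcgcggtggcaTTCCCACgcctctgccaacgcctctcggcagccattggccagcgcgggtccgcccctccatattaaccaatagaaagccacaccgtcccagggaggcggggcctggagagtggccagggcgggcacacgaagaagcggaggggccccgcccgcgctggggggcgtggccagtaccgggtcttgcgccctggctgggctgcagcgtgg

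SOX-type letters, ACAAAG or ACAATG on either strand, were present in the windows of Dll1, Jag1 and Hes5, and 28.6% of all promoters held at least 1 of them. The study also listed stretches recovered with SOX2 antibody from adult cerebral cortex, a different tissue from the one sequenced here. Only the study's shorter list, of the most enriched stretches, was searched, so nothing is said of sites near the other members. In that shorter list 2 stretches had Hes5 as the nearest gene and 1 had Jag1. They are given because they place SOX-type letters, in capitals, near 2 of the members. The first lies in a window whose centre is 316 kb before the start of Jag1 (chr2:137432759-137432859). The second lies 2.47 kb before Hes5 (chr4:154958400-154958500). The third lies within the Hes5 promoter printed above (chr4:154960739-154960769) and is given on the strand of the gene. A match of letters describes the sequence only.
Jag1 distal: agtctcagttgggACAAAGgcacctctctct
Hes5 upstream: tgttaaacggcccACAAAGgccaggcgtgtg
Hes5 promoter: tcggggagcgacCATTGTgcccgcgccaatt

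Libraries held between 21507911 and 28392184 counts on genes, and they are named by the numbers of their columns, 2, 4 and 6 in Ctrl and 1, 3 and 5 in Sox2 cKO. Sox2 itself was 21.4 ± 7.45 CPM (counts scaled to a common library size after TMM normalization; SD, n = 3) in Ctrl and 2.95 ± 0.236 CPM (n = 3) in Sox2 cKO, with no overlap (two-sided exact permutation test, p = 0.1, the smallest value that 3 against 3 allows). Ctrl library 2 stood apart from the other Ctrl libraries. Chi-square per degree of freedom, over the counts of all genes, was 24.95 and 29.2 between it and Ctrl libraries 4 and 6, but between 10.8 and 28.0 against the Sox2 cKO libraries. Libraries also differed by gene length. From the shortest to the longest quintile of the tested genes, the median log2 CPM relative to the mean of all libraries rose by 0.41 in Ctrl library 4, 0.36 in Ctrl library 6 and 0.05 in Ctrl library 2, and it fell by 0.45, 0.20 and 0.21 in Sox2 cKO libraries 1, 3 and 5. For the 10 genes, values without Ctrl library 2 and values with gene length corrected in each library are therefore given beside the main ones. Of the cell type markers, the summed level of 13 astrocyte genes was 12054 to 14161 CPM in Ctrl and 9471 to 10255 CPM in Sox2 cKO. Of the 13, 5 were called lower and 1, S100b, higher, and 10 had log2 fold changes below 0. Gfap (means of 2841 CPM in Ctrl and 1312 CPM in Sox2 cKO) and Slc1a2 (2541 and 1658 CPM) weighed most in the fall of this sum. S100b rose from a mean of 575 to 939 CPM. The sums of 5 oligodendrocyte precursor genes and 6 ependymal genes also lay lower in all Sox2 cKO libraries. Of the precursor genes 4 were called lower, and of the ependymal genes 1, Foxj1, beside 12.4% of all tested genes. Foxj1 fell from a mean of 42.5 to 33.4 CPM and made up most of the ependymal sum. Of the 6 ependymal genes 4 had log2 fold changes below 0. The sum of 9 neuronal genes lay higher in all Sox2 cKO libraries, but 0 of the 9 were called and 5 had log2 fold changes below 0. Snap25, the most abundant of the 9, had means of 2120.5 CPM in Ctrl and 2708 CPM in Sox2 cKO and weighed most in this sum. No marker was at 0 in all libraries. The 5 genes that mark spinal cord position summed to 465 CPM or more. In such whole-tissue RNA, fewer cells of a type and less RNA per cell cannot be told apart.

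**Figure D1:**
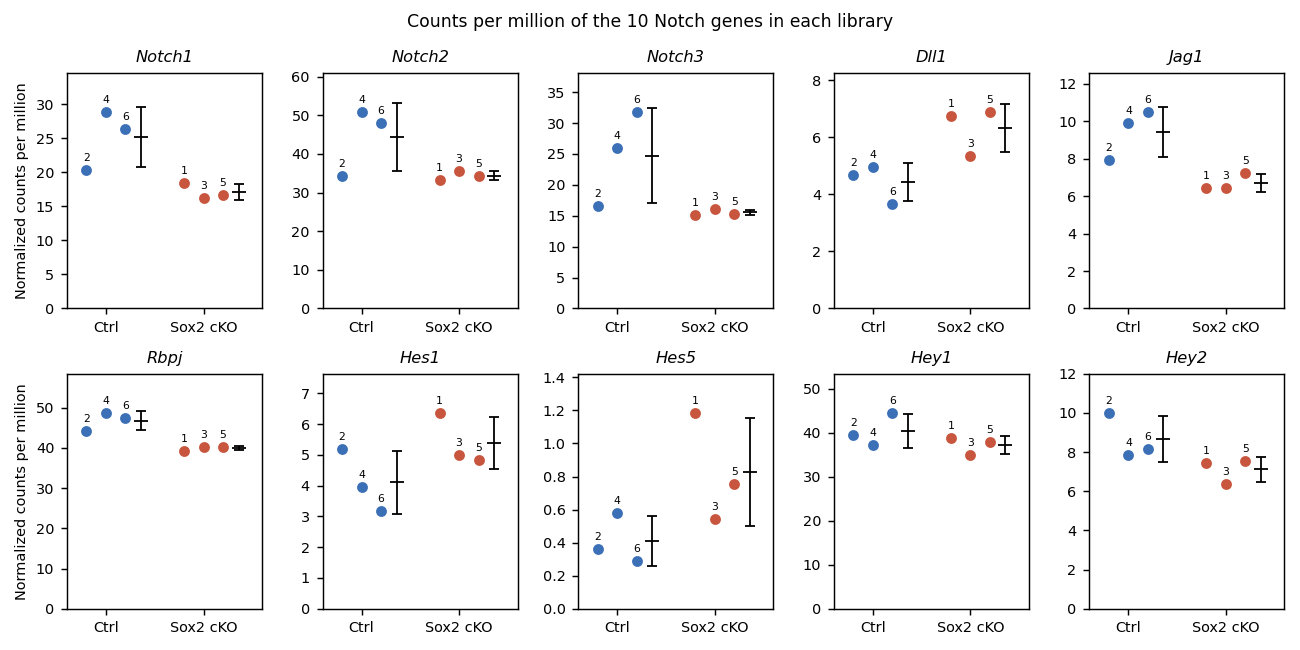
CPM (vertical axes, from 0) of each of the 10 genes in the 3 Ctrl (blue) and 3 Sox2 cKO (red) libraries, each point labelled with its library number, with mean and SD as black bars. The Sox2 cKO points of Notch1, Notch3, Jag1, Rbpj and Hey2 all lie below the Ctrl points, those of Dll1 all lie above, and Ctrl library 2 is the lowest Ctrl point for all 3 receptors.

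Among the receptors, the mRNAs of Notch1 and Notch3 fell in Sox2 cKO, and Notch2 had a value below 0 that did not pass the test. Notch1 (ENSMUSG00000026923, chr2:26457903-26516663 of mm10, minus strand) was 20.3, 28.8 and 26.4 CPM in Ctrl libraries 2, 4 and 6, and 18.5, 16.2 and 16.6 CPM in Sox2 cKO libraries 1, 3 and 5. The groups did not overlap, although Ctrl library 2 and Sox2 cKO library 1 were close to each other. The mean fell from 25.2 ± 4.37 to 17.1 ± 1.22 CPM (SD, n = 3 each), a log2 fold change of -0.56 ± 0.13 (SE) with an adjusted p of 0.018 in edgeR's quasi-likelihood test with Benjamini-Hochberg adjustment over all tested genes. Without Ctrl library 2 the log2 fold change was -0.69 (adjusted p = 0.001), and with gene length corrected it was -0.20 ± 0.11 (adjusted p = 0.26). In edgeR the call was lost without Ctrl library 4 (-0.45, adjusted p = 0.087), Ctrl library 6 (-0.52, 0.059), Sox2 cKO library 1 (-0.62, 0.066) or Sox2 cKO library 3 (-0.52, 0.064), the direction being the same each time. Over all tested genes those edgeR fits made 26, 1082, 8 and 1359 calls, in that order, against 3970 with all libraries. DESeq2 called Notch1 lower in each fit that left out 1 library. The summed astrocyte markers moved with Notch1 and their part in it was not tested, while 10 endothelial genes summed to 276 to 306 CPM in Ctrl and 275 to 391 CPM in Sox2 cKO.

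Notch3 (ENSMUSG00000038146, chr17:32120820-32166852, minus strand) was 16.5, 25.9 and 31.7 CPM in Ctrl libraries 2, 4 and 6, and 15.2, 16.1 and 15.3 CPM in Sox2 cKO libraries 1, 3 and 5. The Sox2 cKO libraries were within 1 CPM of each other, whereas the Ctrl libraries were spread widely, and Ctrl library 2 was only just above the Sox2 cKO range. The mean fell from 24.7 ± 7.68 to 15.5 ± 0.467 CPM, and the log2 fold change of -0.67 ± 0.19 was the most negative of the 10 (edgeR, adjusted p = 0.032). Without Ctrl library 2 it was -0.89 ± 0.11 (edgeR, adjusted p = 0.00051). Corrected for gene length it was -0.35 ± 0.16 (edgeR, adjusted p = 0.15), and with both it was -0.52 ± 0.11 (edgeR, adjusted p = 0.009). The fit with both was added after the values were seen, and it called 2 of the 10 genes. In edgeR, leaving out any library other than Ctrl library 2 gave an adjusted p between 0.07 and 0.11. Values were from -0.45, without Ctrl library 6, to -0.69, without Sox2 cKO library 3. DESeq2 called Notch3 lower in each fit that left out 1 library except that without Ctrl library 6. Notch3 is commonly counted among mural cell markers, although it was not on the list used here. The 10 mural genes of that list summed to 219 to 255 CPM in Ctrl and 251 to 335 CPM in Sox2 cKO, and the only one that passed, Kcnj8, was higher.

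Notch2 (ENSMUSG00000027878, chr3:98013527-98150361, plus strand) was the most abundant receptor, also per gene length, with 34.3, 50.8 and 48.0 CPM in Ctrl libraries 2, 4 and 6, and 33.3, 35.6 and 34.2 CPM in Sox2 cKO libraries 1, 3 and 5. Ctrl library 2 lay inside the Sox2 cKO range, so the groups overlapped. The log2 fold change of -0.37 ± 0.13 missed the threshold in edgeR (adjusted p = 0.066), and DESeq2 called it (-0.38, adjusted p = 0.035). Without Ctrl library 2 it was -0.52 (edgeR, adjusted p = 0.0011), and with gene length corrected it was 0.02 ± 0.09 (edgeR, adjusted p = 0.90). Of the 3 receptors it is the one whose direction was turned by the length correction. Other genes overlap exons of all 3 receptors, and no source says if reads were assigned by strand. The overlapping genes that were in the tables reached at most 0.869 CPM at Notch1 (0610009E02Rik) and 3.28 CPM at Notch3 (Gm17276), both on the opposite strand, and their values overlapped between groups.

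The ligands went in opposite directions, Jag1 passing the test and Dll1 falling just short of it. Jag1 (ENSMUSG00000027276, chr2:137081456-137116644, minus strand), the Jagged ligand, was 7.94, 9.89 and 10.5 CPM in Ctrl libraries 2, 4 and 6, and 6.46, 6.41 and 7.25 CPM in Sox2 cKO libraries 1, 3 and 5. All Sox2 cKO libraries lay below all Ctrl libraries, with Ctrl library 2 again the lowest of its group. The mean fell from 9.44 ± 1.33 to 6.71 ± 0.473 CPM, and the log2 fold change was -0.49 ± 0.15 (edgeR, adjusted p = 0.036). It was -0.60 without Ctrl library 2 (edgeR, adjusted p = 0.0076) and -0.31 ± 0.13 with gene length corrected (edgeR, adjusted p = 0.14). In edgeR the call was lost when any library other than Ctrl library 2 was left out. The edgeR adjusted p was then between 0.055 (Sox2 cKO library 5 left out) and 0.13 (Ctrl library 4 left out). Values were between -0.41 (Ctrl library 6 left out) and -0.55 (Sox2 cKO library 5 left out). DESeq2 called Jag1 with all libraries (adjusted p = 0.023). With 1 library left out, DESeq2 called it without Ctrl library 2 and without Sox2 cKO library 5 only.

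Dll1 (ENSMUSG00000014773, chr17:15367354-15376872, minus strand), a Delta-like ligand typical of committed neural progenitors, had 4.67, 4.95 and 3.67 CPM in Ctrl libraries 2, 4 and 6, and 6.76, 5.36 and 6.88 CPM in Sox2 cKO libraries 1, 3 and 5. All Sox2 cKO libraries were above all Ctrl libraries, by 0.41 CPM at the nearest pair. The log2 fold change of 0.51 ± 0.18 had an adjusted p of 0.057 in edgeR and 0.068 in DESeq2. With gene length corrected it was 0.52 ± 0.17 (edgeR, adjusted p = 0.069). Tested genes of like length had median log2 fold changes of -0.02 (bins with median lengths of 3425 and 3687 bases), so this correction could hardly move Dll1. Without Ctrl library 2 the log2 fold change of Dll1 was 0.55 (edgeR, adjusted p = 0.058). It passed with upper quartile normalization (0.56, edgeR, adjusted p = 0.047) and with limma on log2(FPKM + 1) (0.37, adjusted p = 0.048). These were the only 2 of 21 alternatives that called Dll1. Leaving out 1 library gave 0 calls in 6 edgeR fits, with adjusted p between 0.058 and 0.17. Its exons share 867 bases with A930024N18Rik on the opposite strand, which had 1.54 to 3.01 CPM with overlapping groups.

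Rbpj (ENSMUSG00000039191, chr5:53466152-53657362, plus strand), through which canonical Notch signals reach DNA, changed least in proportion among the genes whose groups were apart. It was 44.2, 48.7 and 47.5 CPM in Ctrl libraries 2, 4 and 6, and 39.3, 40.3 and 40.2 CPM in Sox2 cKO libraries 1, 3 and 5. The spread within each group was small and the groups did not overlap, the mean of Sox2 cKO being 14.6% below that of Ctrl. The log2 fold change of -0.23 ± 0.08 missed the threshold (edgeR, adjusted p = 0.057). It passed without Ctrl library 2 (-0.27, edgeR, adjusted p = 0.016), and it was -0.05 ± 0.07 with gene length corrected (edgeR, adjusted p = 0.63).

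None of the 4 HES and HEY genes passed the test in edgeR (1 of the 4, Hes5, had an unadjusted p under 0.05) or in DESeq2. Hes1 (ENSMUSG00000022528, chr16:30064384-30067796, plus strand) was 5.20, 3.95 and 3.19 CPM in Ctrl libraries 2, 4 and 6, and 6.37, 4.98 and 4.84 CPM in Sox2 cKO libraries 1, 3 and 5. The highest Ctrl library, number 2, lay between the Sox2 cKO libraries. The log2 fold change was 0.39 ± 0.21 (edgeR, adjusted p = 0.19). It was 0.59 without Ctrl library 2, where it passed (edgeR, adjusted p = 0.049), and 0.13 ± 0.18 with gene length corrected (edgeR, adjusted p = 0.65).

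Hes5 (ENSMUSG00000048001, chr4:154960923-154962371, plus strand), whose promoter held 2 of the Rbpj-type matches shown above, was near the limit of detection. It had 8, 14 and 6 counts in Ctrl libraries 2, 4 and 6, and 27, 16 and 20 counts in Sox2 cKO libraries 1, 3 and 5, which correspond to 0.359, 0.582, 0.290, 1.19, 0.546 and 0.756 CPM. Sox2 cKO library 1 was the highest, and Sox2 cKO library 3 lay below Ctrl library 4. The log2 fold change was 0.97 ± 0.43, the largest and least precise of the 10 (edgeR, adjusted p = 0.12). It was 0.88 without Ctrl library 2 (edgeR, adjusted p = 0.21) and 0.67 ± 0.42 with gene length corrected (edgeR, adjusted p = 0.29). Gm20421, which overlaps its exons on the opposite strand, had 0 to 0.499 CPM.

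Hey1 (ENSMUSG00000040289, chr3:8663359-8667256, minus strand) was the most abundant of the 4, also per gene length, with 39.4, 37.2 and 44.5 CPM in Ctrl libraries 2, 4 and 6, and 38.9, 34.8 and 37.8 CPM in Sox2 cKO libraries 1, 3 and 5. The groups overlapped and the log2 fold change was -0.12 ± 0.09 (edgeR, adjusted p = 0.37), and -0.14 without Ctrl library 2 (edgeR, adjusted p = 0.31). With gene length corrected it was -0.28 ± 0.09 (edgeR, adjusted p = 0.072), and with Ctrl library 2 also left out it was -0.32 ± 0.09 (edgeR, adjusted p = 0.034). Hey2 (ENSMUSG00000019789, chr10:30832359-30842801, minus strand), the other member with Rbpj-type matches, was 10.004, 7.86 and 8.16 CPM in Ctrl libraries 2, 4 and 6, and 7.42, 6.38 and 7.56 CPM in Sox2 cKO libraries 1, 3 and 5. All Sox2 cKO libraries lay below the Ctrl libraries, by 0.30 CPM at the nearest pair. The log2 fold change was -0.29 ± 0.15 (edgeR, adjusted p = 0.17). It was -0.17 without Ctrl library 2 (edgeR, adjusted p = 0.38) and -0.40 ± 0.14 with gene length corrected (edgeR, adjusted p = 0.079). So Hes1 and Hes5 had positive and Hey1 and Hey2 negative fold changes, and none of these was past the threshold in the fit of all libraries. Heyl, a further HEY gene given below, was called higher (0.48, edgeR, adjusted p = 0.027).

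Levels of different genes were compared per length, as FPKM, counts scaled to gene length and library size, from the deposited table. In Ctrl, Hey1 was highest with 17.7 ± 1.41 FPKM (SD, n = 3), followed by Rbpj with 8.15 ± 0.276 FPKM and Notch2 with 4.07 ± 0.732 FPKM. The ranges of Hey1, Rbpj and Notch2 were apart. Below them Hey2 (3.29 ± 0.525 FPKM), Notch3 (2.95 ± 0.849 FPKM), Hes1 (2.72 ± 0.746 FPKM) and Notch1 (2.56 ± 0.400 FPKM) followed. From Notch2 to Notch1, each gene's range overlapped that of the next, so this part of the order was not separated by the spread between mice. Jag1 (1.62 ± 0.189 FPKM), Dll1 (1.196 ± 0.200 FPKM) and Hes5 (0.311 ± 0.116 FPKM) were the lowest, with ranges apart from each other. In Sox2 cKO the mean FPKM of Dll1 was 1.83 ± 0.248 and that of Jag1 was 1.24 ± 0.0655, so that the order of the ligands was the reverse of that in Ctrl. These FPKM values were not corrected for the differences by gene length between libraries. With that correction edgeR called neither ligand, and Dll1 was not called without it. The FPKM of Hes1 was 3.81 ± 0.684 in Sox2 cKO, and that of Notch2, the highest of the receptors, was 3.38 ± 0.108, with overlapping ranges.

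Together, 3 of the 10 genes were called, all 3 lower, while 24.6% of all 16137 tested genes were called, 12.4% lower and 12.2% higher. The groups did not overlap for 6 of the 10, 5 lower and 1 higher, beside 44.7% of all tested genes. The median log2 fold change of the 10 was -0.26, and that of all tested genes was 0.02. Ctrl library 2 was the Ctrl library nearest to the Sox2 cKO mean for 6 of the 10 (Notch1, Notch2, Notch3, Jag1, Rbpj and Hes1), as it was for 62.6% of all tested genes. Without it 6 of the 10 were called (Notch1, Notch2, Notch3, Jag1 and Rbpj lower, Hes1 higher), beside 36.9% of all genes tested in that fit, 18.6% lower and 18.3% higher. With gene length corrected 0 of the 10 were called by edgeR (5 had an unadjusted p under 0.05), beside 13.7% of all tested genes. The edgeR fit with both changes, added after the values were seen, called 2 of the 10, Notch3 and Hey1, both lower. It called 4453 of the 16590 genes that it tested. In that fit edgeR did not call Notch1 (-0.25, adjusted p = 0.15), Notch2 (-0.05, 0.67) or Jag1 (-0.38, 0.06). DESeq2, without a length correction, called 4 of 10, beside 17.7% of the 24429 genes to which it gave a p-value. That wider set includes genes of low counts that the edgeR filter left out, so its share is not like the others.

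**Figure D2:**
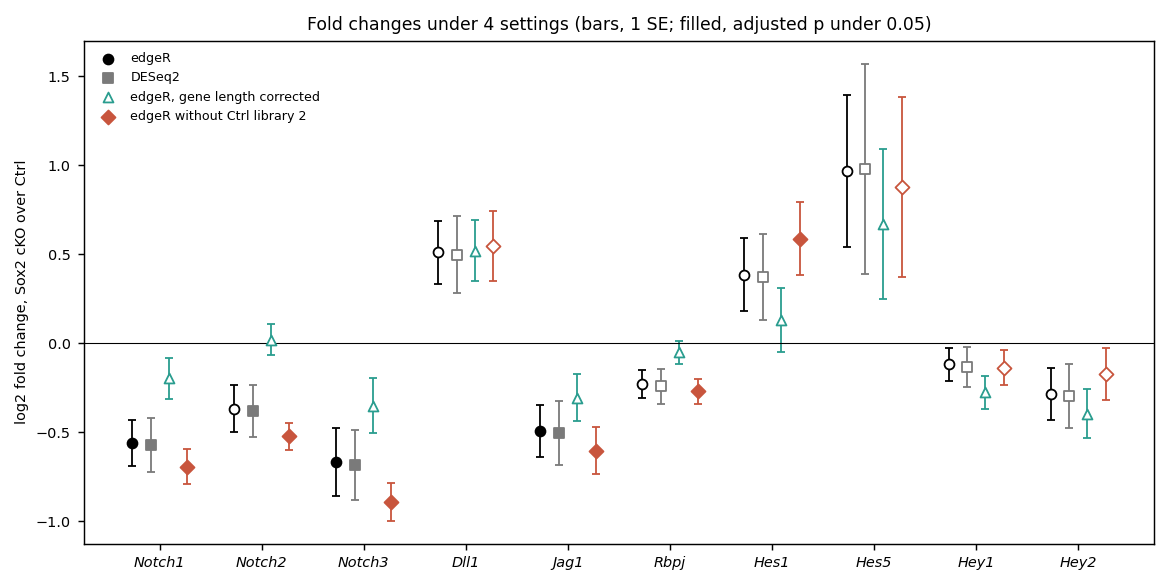
log2 fold change of Sox2 cKO over Ctrl (vertical axis) of the 10 genes under 4 settings, with bars of 1 SE and filled symbols where the adjusted p was under 0.05. Length-corrected values (green) of the receptors, Jag1, Rbpj and the HES genes lie nearer to 0 than the uncorrected ones (black), Dll1 keeps its value, and the values without Ctrl library 2 (red) of the receptors lie further below 0.

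The members differ in gene length. The 3 receptors, Jag1 and Rbpj, with lengths of 5541 to 10506 bases in the FPKM table, were in the longest quintile of the tested genes, and Hes1 and Hes5, with 1468 and 1273 bases, were in the shortest. In the longest quintile 36% of 3227 genes were called lower and 1.74% higher, with a median log2 fold change of -0.25. In the shortest quintile 30.4% of 3229 genes were called higher and 1.73% lower, with a median of 0.30. Calls of 3 of 5 members as lower thus stand beside a share of 36% of genes of like length. Dll1, with 3581 bases and a log2 fold change of 0.51, lies in the fourth quintile, where the median was -0.07 and 5.02% were called higher. Hey1 and Hey2 lie in the second quintile, where the median was 0.15, and both had values below 0.

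**Figure D3:**
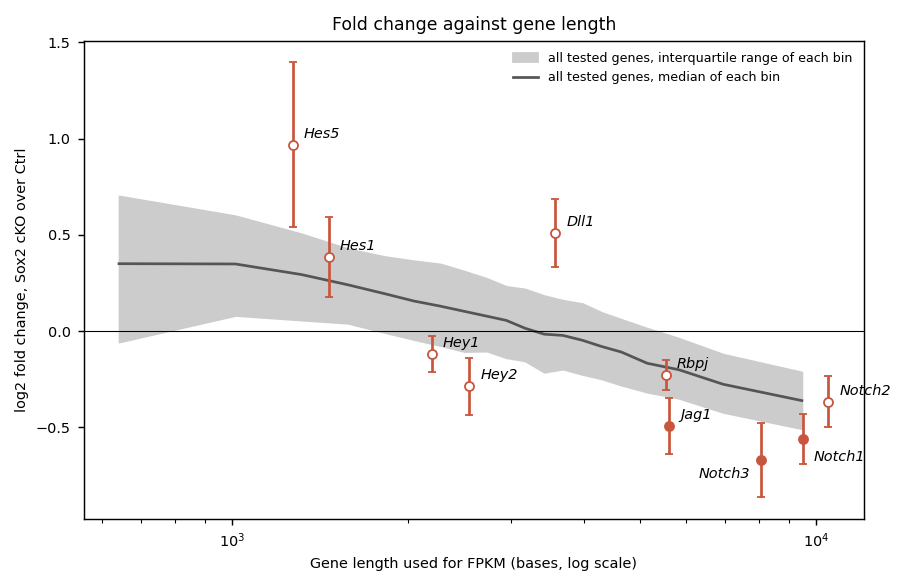
log2 fold change of Sox2 cKO over Ctrl (vertical axis, bars of 1 SE) against gene length in bases (horizontal log axis) for the 10 genes in red, filled where called, over the median (line) and interquartile range (grey) of all tested genes in 20 length bins. Rbpj and Hes1 lie in the grey band and Notch2 beyond its right end, whereas Dll1 and Hes5 lie above the band and Notch1, Notch3, Jag1, Hey1 and Hey2 below it.

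The rest of the pathway was described from a list of 67 genes, of which 66 were tested, Hes7 being too low. Of these 12 were called lower and 8 higher, that is 20 of 66 beside 24.6% of all tested genes, and their median log2 fold change was -0.04. The fourth receptor, Notch4, typical of endothelium, was -0.16 ± 0.15 (edgeR, adjusted p = 0.45). The canonical ligands Dll3 (-0.05), Dll4 (0.19) and Jag2 (-0.16) did not pass either, with adjusted p of 0.27 or more in edgeR. Among ligand-like membrane proteins, Cntn1, an adhesion molecule that can bind Notch, fell by 0.50 (edgeR, adjusted p = 0.014), and Dlk2, a Delta-like protein without the receptor-activating domain, rose by 0.92 (edgeR, adjusted p = 0.023). Dlk1 (0.21), Dner (-0.01) and Cntn6 (0.05) did not pass, with adjusted p of 0.095, 0.97 and 0.71 in edgeR. Dlk2 was 3.77, 1.995 and 2.80 CPM in Ctrl libraries 2, 4 and 6, and 5.45, 6.21 and 4.495 CPM in Sox2 cKO libraries 1, 3 and 5, with no overlap. After the length correction Cntn1 was -0.31 (edgeR, adjusted p = 0.029), and the call of Dlk2 was lost (0.72, edgeR, adjusted p = 0.057).

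The enzymes that mature and cut the receptor were divided. Furin, the convertase that cuts newly made receptors, fell by 0.46 (edgeR, adjusted p = 0.022), and the sheddases Adam10 (-0.05, adjusted p = 0.70 in edgeR) and Adam17 (-0.20, adjusted p = 0.25 in edgeR) did not pass. Among the gamma-secretase subunits, Psenen, a small subunit needed for the activity of the complex, rose. Psenen was 40.6, 27.0 and 26.7 CPM in Ctrl libraries 2, 4 and 6, and 52.2, 53.8 and 48.3 CPM in Sox2 cKO libraries 1, 3 and 5. All Sox2 cKO libraries were higher, with a log2 fold change of 0.71 ± 0.15 (edgeR, adjusted p = 0.014), and Psenen is the shortest of the called pathway genes, with 648 bases. Of the 6 receptor glycosyltransferases, Lfng, a Fringe enzyme that tunes which ligand a receptor answers, rose by 0.45 (edgeR, adjusted p = 0.016), Rfng rose as well, and Pofut1, the fucosyltransferase that precedes them, fell. The call of Lfng held with gene length corrected (0.31, edgeR, adjusted p = 0.042). Those of Furin (-0.26, adjusted p = 0.087), Psenen (0.40, 0.054), Rfng (0.23, 0.094) and Pofut1 (-0.10, 0.46) were lost in that edgeR fit.

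Among 15 corepressors, 5 fell and 1 rose, beside 12.4% of all tested genes called lower and 12.2% higher, and with gene length corrected 1 was called lower and 1 higher. Spen, the scaffold that represses targets with Rbpj, had the largest fall of the list, with 71.2, 110 and 97.0 CPM in Ctrl libraries 2, 4 and 6, and 37.6, 57.1 and 56.0 CPM in Sox2 cKO libraries 1, 3 and 5. All Sox2 cKO libraries lay below the lowest Ctrl library, and the log2 fold change was -0.89 ± 0.18 (edgeR, adjusted p = 0.014). Ncor1, a scaffold for histone deacetylases, fell by 0.44 (edgeR, adjusted p = 0.018). Tle2, a Groucho-type corepressor used by HES proteins, rose by 0.66 (edgeR, adjusted p = 0.013). Dtx3, a Deltex ubiquitin ligase, rose by 0.60 (edgeR, adjusted p = 0.013). Further calls were Dtx4, Mib1, which ubiquitinates ligands, the coactivator Ep300, and the corepressors Kdm5a and Tle3, all lower. After correction for gene length the calls of Spen (-0.47), Tle2 (0.74) and Dtx3 (0.42) held, with adjusted p of 0.025, 0.017 and 0.022 in edgeR. Those of Ncor1 (-0.11, adjusted p = 0.30), Dtx4 (-0.23, 0.14) and Ep300 (-0.08, 0.41) were lost in that edgeR fit. Mib1 (0.05, adjusted p = 0.64) and Tle3 (0.01, 0.93) turned direction in it, and Kdm5a was close to 0 (adjusted p = 1.0).

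Of 4 further target genes tested, Heyl and Nrarp rose, beside 12.2% of all tested genes called higher. Heyl, a HEY family repressor known in mural cells, was 13.5, 13.1 and 9.80 CPM in Ctrl libraries 2, 4 and 6, and 16.2, 17.3 and 17.4 CPM in Sox2 cKO libraries 1, 3 and 5. The groups were apart, with a log2 fold change of 0.48 ± 0.13 (edgeR, adjusted p = 0.027), and of 0.58 ± 0.13 with gene length corrected (edgeR, adjusted p = 0.024). Of 6 edgeR fits that left out 1 library, only 1 called Heyl, that without Ctrl library 2 (0.56, adjusted p = 0.01). In the others the call was lost, with edgeR adjusted p up to 0.084 and values down to 0.35. Nrarp, which encodes a feedback inhibitor of Notch, was 7.18, 8.65 and 6.28 CPM in Ctrl libraries 2, 4 and 6, and 11.2, 10.6 and 9.18 CPM in Sox2 cKO libraries 1, 3 and 5. Its groups were also apart, with a log2 fold change of 0.48 ± 0.15 (edgeR, adjusted p = 0.043). It was 0.38 ± 0.14 with gene length corrected (edgeR, adjusted p = 0.11) and 0.46 without Ctrl library 2 (edgeR, adjusted p = 0.060). Hes6 (0.45) and Hes3 (0.09) did not pass, with adjusted p of 0.088 and 0.83 in edgeR.

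The 12 pathway genes called lower had a median length of 8688 bases, and the 8 called higher had one of 2374.5 bases. With gene length corrected, 9 of 66 were called, beside 13.7% of all tested genes. These were 3 of the 12 lower genes, Cntn1 and Spen among them, and 4 of the 8 higher ones (Lfng, Dtx3, Tle2 and Heyl), with Dlk1 and Numbl, which both rose, in addition. Without Ctrl library 2, 28 of 66 were called, beside 36.9% of all genes tested in that fit, and they included all 12 of the lower and 7 of the 8 higher genes. Without Ctrl library 4 or without Sox2 cKO library 1 edgeR called 0 of them (22 and 23 had an unadjusted p under 0.05), and DESeq2 called 11 and 13. Without Ctrl library 6, Sox2 cKO library 3 or Sox2 cKO library 5 edgeR called 5, 7 and 10.

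**Figure D4:**
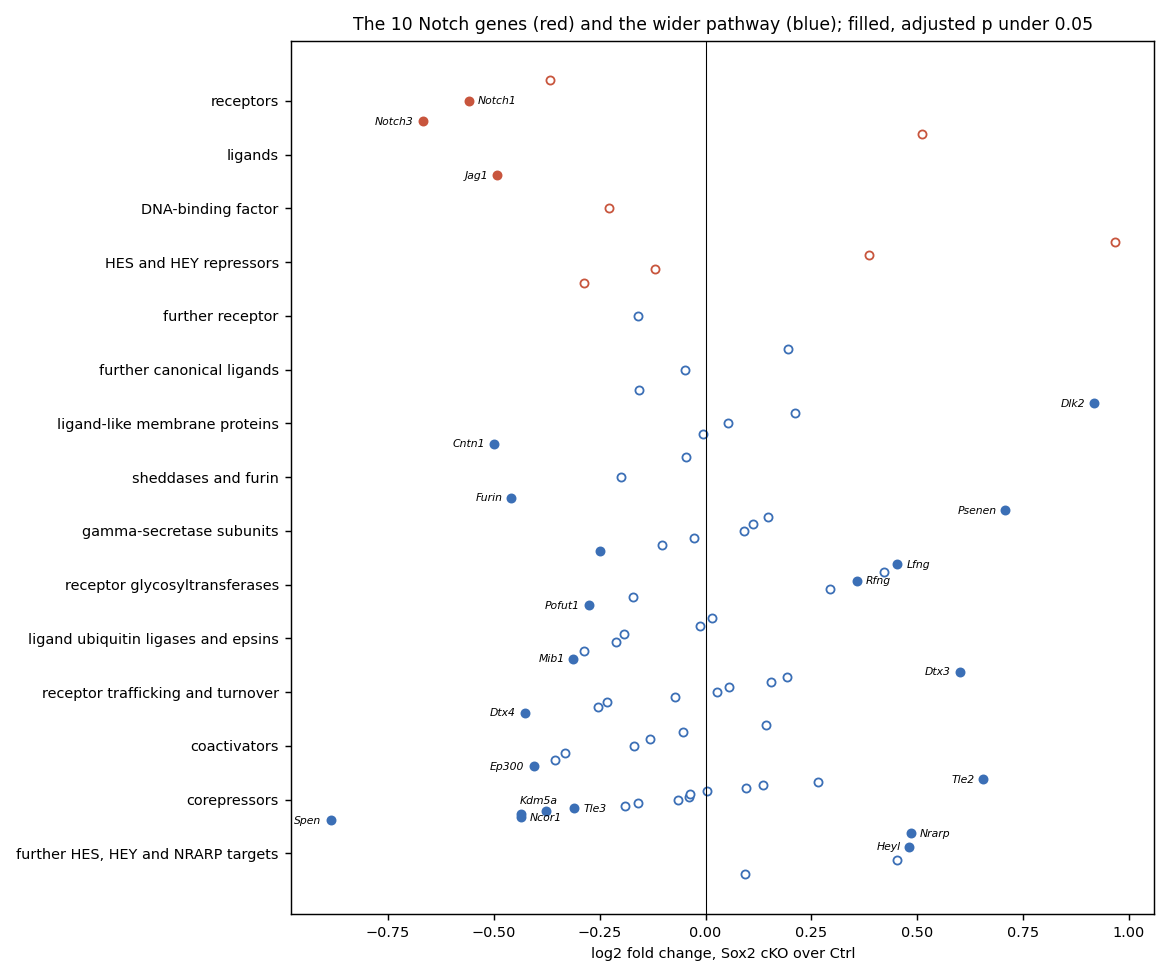
log2 fold change of Sox2 cKO over Ctrl (horizontal axis) of the 10 Notch genes (red) and 66 further pathway genes (blue), 1 point a gene and 1 row a functional group, filled where the adjusted p was under 0.05, with the names of called genes given in the text. The called receptors and Jag1 lie left of 0, the corepressors lie mostly left with Tle2 on the right, and the called further targets, Heyl and Nrarp, lie on the right.

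For the 3 members with the smallest p, the tested genes whose log2 CPM followed the same course over the 6 libraries most closely were sought by the root mean square difference after centring. Those nearest to Notch1 were Fam53b (0.04 log2 units), Calcrl (0.04) and Adgrg1 (0.05). Those nearest to Notch3 were Zfp442 (0.03), Mrtfb (0.07) and Shroom3 (0.09). Those nearest to Jag1 were Eef2 (0.02), the translation elongation factor, Tmcc2 (0.02) and Mical3 (0.03). Eef2 was 1445, 1857 and 1909 CPM in Ctrl libraries 2, 4 and 6, and 1192, 1162 and 1322 CPM in Sox2 cKO libraries 1, 3 and 5.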

How the data were processed

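Poly(A) RNA of 6 spinal cords was sequenced with a directional kit and single-end reads. Per the labels, the authors used STAR 2.5, HTSeq 0.6.1 and mm10, and they deposited raw counts per gene and FPKM values made from the same counts and gene lengths. Whether counting used the strand is not given in the sources used here. The RNA integrity number was above 6.8 per the labels, and the study's methods give a higher minimum. The columns of the tables carry numbers. Columns ending in 2, 4 and 6 were taken as Ctrl and those ending in 1, 3 and 5 as Sox2 cKO, the numbers a blot of brain protein gives to the mice of each group. The group means of normalized counts that the authors listed by group name were then compared, and 1999 of 1999 listed genes matched within 0.1%, and 0 when the groups were exchanged. No column of another sample was found. Nothing in the labels says more of how mice and libraries correspond, so p-values measure the spread between these libraries.

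Gene names and positions were from GENCODE M21 (34490 of 35275 identifiers matched), and exon overlaps from the same annotation. The test on counts was that of edgeR 4.0.16 under R 4.3.3 (filterByExpr, TMM, quasi-likelihood test, no covariate, threshold 0.05 on Benjamini-Hochberg adjusted p). The biological coefficient of variation was 0.119. Alternatives were DESeq2 1.42.0, upper quartile normalization, no filter, at least 10 counts in every library, limma 3.58.1 on log2(FPKM + 1) or log2(FPKM + 0.1) with and without a minimum mean FPKM of 0.5, a lowess correction for gene length (span 0.3), and leaving out each library. DESeq2 without each library, and the length correction without Ctrl library 2, were added after the values were seen. The fits were tested on simulated data. Members, pathway list, markers, tests and alternatives were chosen with earlier results of these data known. Named pathway genes were those of lists of 5 or fewer, and up to 12 called genes with the largest change, and other genes were named with their values in view. Some genes of the lists were counted and are not reported by name here.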

Additional observations from a re-analysis of the deposited data

How the results depend on the processing

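Of the 10 Notch genes, edgeR called 0 to 6 when 1 library was left out (6 without Ctrl library 2, and 0 without Ctrl library 4, Ctrl library 6, Sox2 cKO library 1 or Sox2 cKO library 3, where 4 to 7 had an unadjusted p under 0.05), and DESeq2 called 1 to 5. Of the wider pathway edgeR called 0 to 28 and DESeq2 11 to 25, and of all tested genes 8 (without Sox2 cKO library 1, 4945 with an unadjusted p under 0.05) to 6119 and 1981 to 5624. With gene length corrected edgeR called 0 Notch genes, 9 pathway genes and 2207 genes in all. limma called 1, 11 and 3585 on log2(FPKM + 1), 0, 11 and 3510 on log2(FPKM + 0.1), and 0, 0 and 7 on log2(FPKM + 1) with no filter, where 5, 5 and 4 Notch genes and 26 pathway genes each time had an unadjusted p under 0.05. Of the calls on log2(FPKM + 1) 25.5% were lower, against 50.6% in the edgeR fit, and the median of all genes was 0.09, or 0.11 with the pseudocount of 0.1. The cause was not tested. Of the 10 Notch genes 9 kept their direction under the alternatives that gave a value, which were 21 for each gene but Hes5 with 13, and Notch2 turned to 0.02 with gene length corrected. Of the called pathway genes, Mib1 and Tle3 turned to 0.05 and 0.01 with gene length corrected, and to 0.08 and 0.03, with Kdm5a at 0.07, when Ctrl library 2 was also left out. Pathway genes near 0 that were not called turned sign as well. Dner was 0.04 with upper quartile normalization, 0.00 with at least 10 counts, 0.09 with limma (log2(FPKM + 1) with and without a filter, and log2(FPKM + 0.1)) and 0.01 with gene length corrected. Dll3 was 0.02, 0.04 and 0.02 and Adam10 was 0.05, 0.05 and 0.05 in the 3 limma fits. With gene length corrected Notch4 was 0.09, Adam10 0.05 and Hes3 -0.11, and with Ctrl library 2 also left out Notch4 was 0.03, Adam10 0.10, Adam17 0.02 and Hes3 -0.08. When 1 library was left out, by edgeR or DESeq2, Dner ranged from -0.06 to 0.04, Dll3 from -0.19 to 0.06, Adam10 from -0.11 to 0.01, Hes3 from -0.03 to 0.19 and Cntn6 from -0.04 to 0.10. No paired analysis was possible because the columns carry no replicate numbers. Hes5, with counts of 6 to 27, was left out by the filter of 10 counts and by that on FPKM, and DESeq2 without 1 library gave it an adjusted p only when that was Ctrl library 2. Depth and the spread between mice were not separated. Sox2 stayed lower under all alternatives, with an adjusted p of 0.057 from limma with no filter.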
